A study of Mus musculus with 42 samples.

Results

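The genes described here make reactive oxygen and nitrogen species at the surface of the colon epithelium, or remove them. They are the NADPH oxidase gene Nox1 with its partners Noxa1 and Noxo1, the dual oxidase gene Duox2 with its maturation factor Duoxa2, the inducible nitric oxide synthase gene Nos2 and the glutathione peroxidase gene Gpx2. They were chosen by gene symbol, and all 7 were listed in each of the 9 tables, among 20462 genes listed in all.

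Nox1 is the catalytic subunit of the main NADPH oxidase of colon epithelium. It passes electrons from NADPH across the membrane to oxygen and so makes superoxide, and it works only with an activator subunit (Noxa1), an organizer subunit (Noxo1), the membrane partner Cyba and the small GTPase Rac1. Duox2 makes hydrogen peroxide at the cell surface and leaves the endoplasmic reticulum only together with Duoxa2. Nos2 makes nitric oxide from arginine and is known as a gene that inflammation turns on, in epithelium and in myeloid cells. Gpx2 is a selenium enzyme of the gut epithelium that uses glutathione to remove hydrogen peroxide and lipid peroxides.

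RNA was sequenced from colon epithelial isolates (crypts released with EDTA) and from tumors of mice at least 8 weeks old and of both sexes. Mice of the null colony, backcrossed to C57BL/6J, were WT or lacked Mtg16 in every cell (Mtg16-/-), and mice of a separate CRISPR colony, made in C57BL/6J embryos with founders crossed to C57BL/6J, were WT or homozygous for the P209T change (T/T), which weakens binding of the corepressor MTG16 to E proteins. Proximal crypts were taken within 5 cm of the cecum and distal crypts within 5 cm of the anus. Baseline proximal crypts comprised 2 libraries each of WT and Mtg16-/- mice of the null colony and 2 each of WT and T/T mice of the T/T colony. Baseline distal crypts comprised 4 WT and 4 Mtg16-/- libraries of the null colony, and 3 WT and 4 T/T libraries of the T/T colony. Distal crypts were also taken after 5 days of 2% dextran sodium sulfate (DSS), a detergent-like polymer in the drinking water that injures the epithelium, and 4 days of recovery. These were 3 WT and 4 Mtg16-/- libraries of the null colony and 3 WT and 3 T/T libraries of the T/T colony. Distal tumors, dissected whole, came from 3 WT and 3 T/T mice given azoxymethane (AOM, 10 mg/kg) and 3 cycles of 3% DSS, each of 4 days followed by 16 days of recovery.

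The 38 libraries whose whole reads were recovered held 32231389 to 74661887 reads on listed genes, with a median of 46659626. Summed epithelial markers (7 genes such as Epcam and Krt8) were at 587140 to 1334000 normalized counts in the crypt libraries. In the tumors, which hold all cell types of the lesion, fibroblast markers summed to 127000 to 178800. The targeted gene, Cbfa2t3 (Mtg16), was lower in Mtg16-/- libraries than in WT libraries after DSS (427 to 595 against 1845 to 2519 normalized counts) and in proximal crypts (631 to 1057 against 1634 to 3221). In distal crypts the ranges overlapped (424 to 1095 against 1027 to 1809, or 424 to 694 without the library described next), and reads of the gene remained in all Mtg16-/- libraries. The labels do not say which mouse or litter each library came from, and p-values measure only the spread between these libraries, which may be technical in part. Each library name opens with a number, here called the request. The labels do not say what it stands for, and its use as a batch is inferred from the names.

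The library labelled distal Mtg16-/- replicate 2 went against its label. It held 0 normalized counts of Hoxd13 and 245 of Hoxb13, homeobox genes of the hind end of the gut, where the other 7 baseline distal libraries in its table held 3576 to 6654 and 17409 to 23426. Atp12a, an ion pump of distal colon, was at 127 against 31783 to 64450. Abca12 was at 9746 against 1.16 to 22.9, and Prap1 at 1947 against 18.0 to 42.7. Proximal WT libraries, scaled in another table, held 0 Hoxd13, 12.6 to 259 Hoxb13 and 8888 to 13303 Abca12. These segment genes were chosen after their values were seen, and results in which leaving this library out moves a value or a call are also given without it.

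In the mouse genome (GRCm38, GENCODE vM21 annotation) the genes lie on 5 chromosomes. Duox2 (ENSMUSG00000068452.8, chr2:122279247-122298449, minus strand) and Duoxa2 (ENSMUSG00000027225.7, chr2:122298900-122302885, plus strand) stand head to head, with annotated starts 451 bases apart. Noxa1 (ENSMUSG00000036805.13) is at chr2:25085667-25095149, Nos2 (ENSMUSG00000020826.8) at chr11:78920787-78960254, Gpx2 (ENSMUSG00000042808.8) at chr12:76792333-76795554, Noxo1 (ENSMUSG00000019320.14) at chr17:24696234-24700529 and Nox1 (ENSMUSG00000031257.14) at chrX:134086421-134221956. The principal Nox1 transcript spans only chrX:134086421-134111854. Other genes overlap members on the opposite strand: Fntb covers all 3222 bases of Gpx2, Tbl3 covers 2581 bases of Noxo1, and the last 695 bases of Duoxa2 lie under the end of Duoxa1. Cstf2 shares 399 bases with Nox1 and Entpd8 shares 50 with Noxa1, and the longer Nox1 span also holds Arl13a (20528 bases) and, on its own strand, Xkrx (13034 bases). Whether the counting used strand was not stated, so reads of such overlaps cannot be assigned to a gene with certainty.

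**Figure D1:**
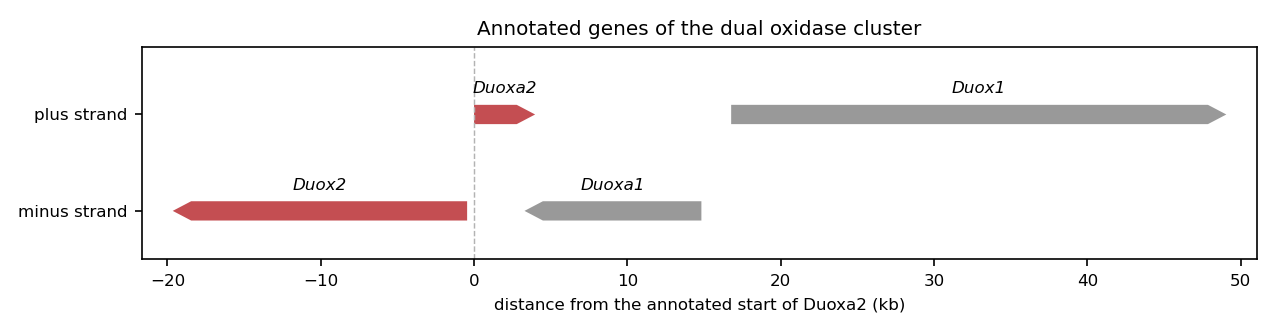
The map shows the annotated genes of the dual oxidase cluster on the plus and minus strands, with the distance from the start of Duoxa2 in kb on the horizontal axis and arrowheads pointing along transcription. Duox2 and Duoxa2 (red) start 451 bases apart and run away from each other, and Duoxa1 (grey) overlaps the last 695 bases of Duoxa2.

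The promoter windows of Duox2 and Duoxa2 are shown because these genes share an upstream region, and those of Nox1 and Gpx2 as the superoxide-making and the peroxide-removing member. E-boxes were marked because the MTG16 partners E2A and HEB bind them. Each window is 300 bases from RefSeq (GRCm38.p6), 250 before and 50 after the start, printed 5′ to 3′ along the gene. Capitals mark E-box letters (CANNTG, which reads the same on both strands).
Nox1, chrX:134111805-134112104, minus strand: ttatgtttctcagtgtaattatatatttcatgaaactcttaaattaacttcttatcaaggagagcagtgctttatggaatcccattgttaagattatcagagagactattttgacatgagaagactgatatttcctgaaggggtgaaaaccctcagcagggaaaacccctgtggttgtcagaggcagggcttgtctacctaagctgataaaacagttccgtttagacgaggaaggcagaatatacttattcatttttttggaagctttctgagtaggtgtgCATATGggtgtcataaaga
Duox2, chr2:122298178-122298477, minus strand: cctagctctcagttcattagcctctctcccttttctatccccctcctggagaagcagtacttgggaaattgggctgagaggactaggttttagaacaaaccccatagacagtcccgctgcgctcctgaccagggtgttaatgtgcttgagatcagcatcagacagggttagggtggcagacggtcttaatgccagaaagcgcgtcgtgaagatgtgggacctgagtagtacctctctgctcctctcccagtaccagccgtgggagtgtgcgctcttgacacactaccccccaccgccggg
Duoxa2, chr2:122298650-122298949, plus strand: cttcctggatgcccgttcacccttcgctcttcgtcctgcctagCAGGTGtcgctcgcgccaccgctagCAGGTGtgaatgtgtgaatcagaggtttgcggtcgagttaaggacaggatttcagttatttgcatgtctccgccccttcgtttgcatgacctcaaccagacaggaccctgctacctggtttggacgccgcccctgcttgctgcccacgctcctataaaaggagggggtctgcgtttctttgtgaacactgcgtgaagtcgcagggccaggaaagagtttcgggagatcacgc
Gpx2, chr12:76795505-76795804, minus strand: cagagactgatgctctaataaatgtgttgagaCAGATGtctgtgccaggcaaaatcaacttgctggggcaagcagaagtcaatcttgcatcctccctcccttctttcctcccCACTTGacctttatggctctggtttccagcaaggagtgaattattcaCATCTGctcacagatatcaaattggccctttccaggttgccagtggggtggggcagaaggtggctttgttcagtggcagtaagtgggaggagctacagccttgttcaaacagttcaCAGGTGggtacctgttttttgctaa
The Duoxa2 window holds 2 E-boxes and the Gpx2 window 4, the Nox1 and Noxa1 windows 1 each, and the Duox2 and Noxo1 windows none. E-box letters were in 4 of these 6 windows and in 72.3% of 32851 RefSeq promoter windows of the same length. The AP-1 letters TGANTCA (in 7.81% of windows) and the TATA letters TATAAA (13.6%) were in the Duoxa2 window alone. The NF-kB motif (8.46%) was in the Nox1 and Noxa1 windows, and neither the STAT motif TTCNNNGAA (8.3%) nor the antioxidant response core TGACNNNGC (12.4%) was in any of the 6. Both strands were searched, and the Nos2 promoter was not printed or searched.

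Reads were recovered for 12 conditions, which leave out proximal Mtg16-/- and proximal T/T crypts. Across these 12, levels are given as CPM (reads scaled to a common library total) after TMM scaling, and between genes as CPM per kb of principal transcript. Per kb, Gpx2 was the most abundant member in all of these conditions, with means from 375 to 1085. Duox2 means ran from 60.2 to 129, Duoxa2 from 48.0 to 115, Nox1 from 13.6 to 95.3, Noxa1 from 17.1 to 77.3, Nos2 from 19.8 to 77.0 and Noxo1 from 33.5 to 67.7.

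**Figure D2:**
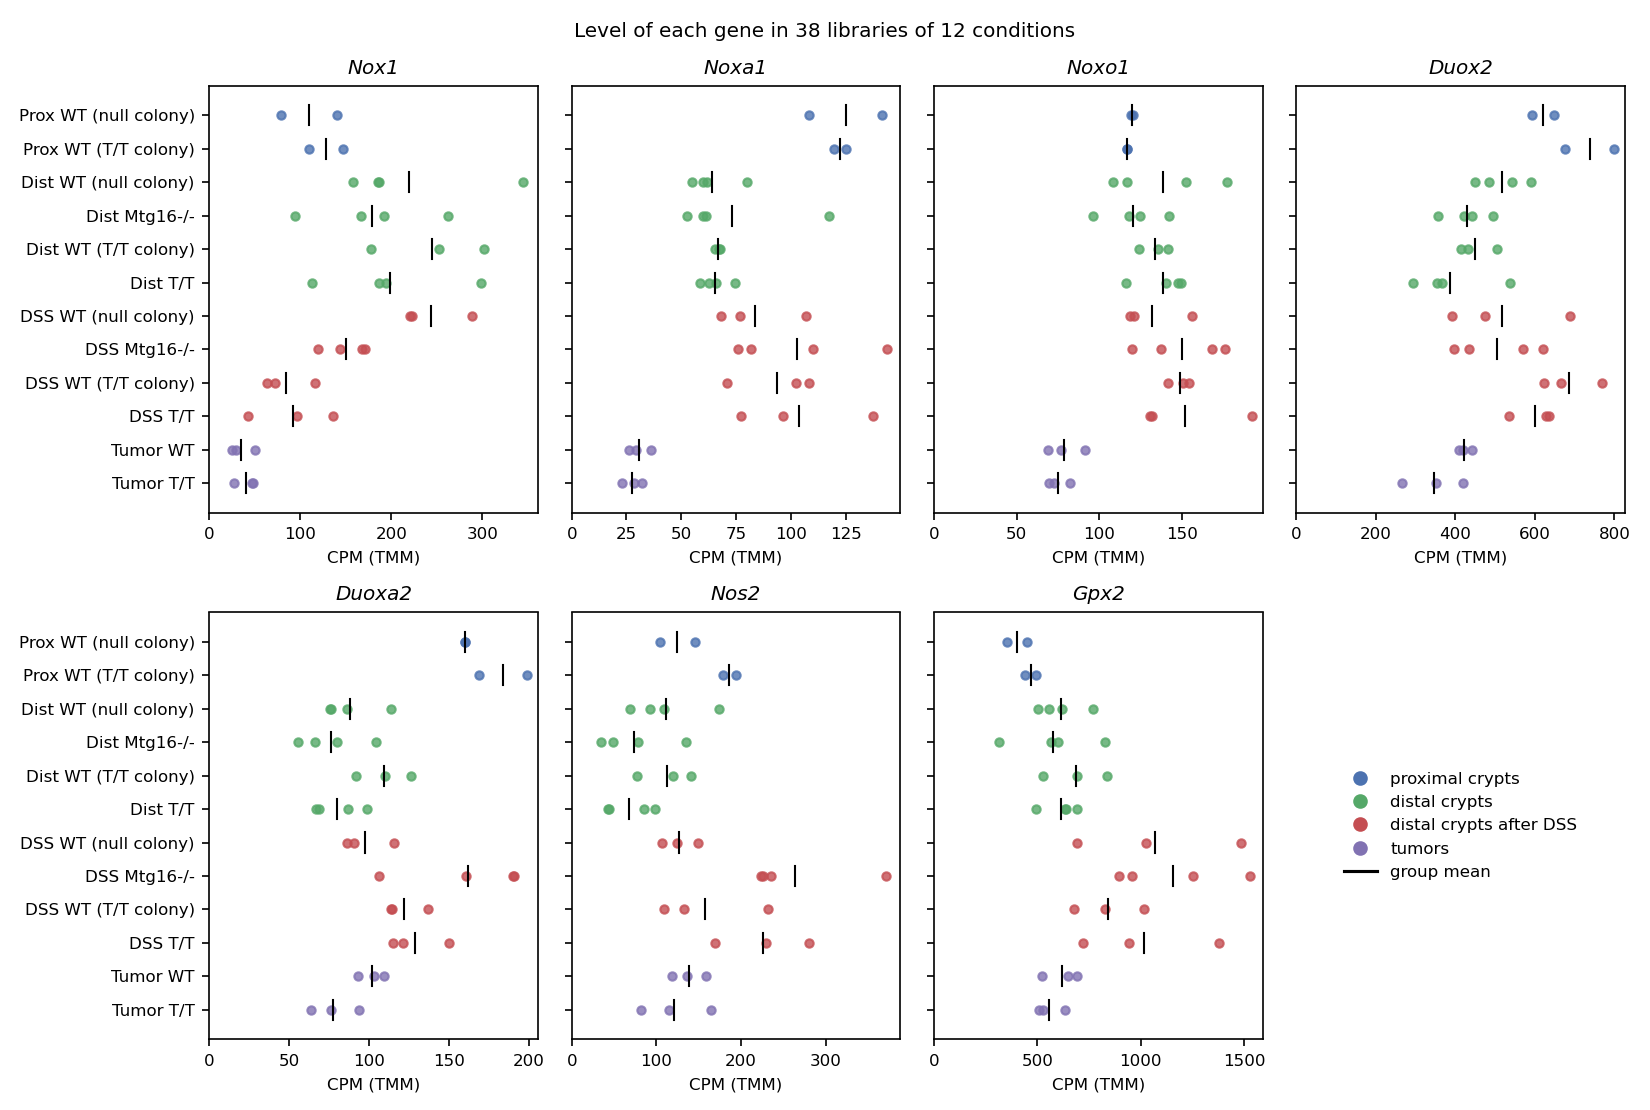
Each point is a library, the horizontal axis is CPM after TMM scaling, the rows are the 12 conditions and the black bar is the group mean. Nox1, Noxa1 and Noxo1 are lowest in tumors, Nox1 is low after DSS in the T/T colony but not in WT mice of the null colony, and Nos2 is highest in Mtg16-/- crypts after DSS.

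The Nox1 level was highest in baseline distal WT crypts of the T/T colony, at 244 ± 62.4 CPM (SD, n = 3), and in WT crypts of the null colony after DSS, at 244 ± 38.6 (n = 3). It was lowest in tumors, at 40.4 ± 11.8 in T/T (n = 3) and 34.9 ± 13.7 in WT (n = 3). In that order each neighbouring condition overlapped the next, except that all tumors (25.1 to 50.5) were below all WT crypts of the T/T colony after DSS (63.2 to 116). The T/T crypts after DSS (42.4 to 136) overlapped the tumors. Noxa1 tumor levels (22.8 to 36.2) were below every crypt library (52.8 or more), and Noxo1 tumor levels (68.6 to 90.9) were below the lowest crypt library at 95.9. In bulk samples fewer epithelial cells and less RNA per epithelial cell cannot be told apart. Epithelial markers summed to 451680 to 734530 normalized counts in the tumors, scaled apart from the crypts, so the sums do not compare their epithelial content. Tumors and crypts had different request numbers, so these levels are a description with no test.

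Nos2 had its highest level in Mtg16-/- crypts after DSS, at 264 ± 71.6 CPM (n = 4), then in T/T crypts after DSS, at 227 ± 55.8 (n = 3). It had its lowest levels in baseline distal crypts of the same genotypes, at 74.2 ± 44.7 in Mtg16-/- (n = 4, or 73.0 without the library that went against its label) and 67.7 ± 28.5 in T/T (n = 4). Among these 12 conditions, which lack the proximal mutants, Gpx2 was highest in the 4 groups taken after DSS, with means from 842 to 1158. It was lowest in proximal WT crypts, at 400.3 ± 69.9 and 468 ± 35.7. Within the same conditions Duox2 was highest in proximal WT crypts of the T/T colony (738 ± 87.5) and lowest in T/T tumors (346 ± 76.8). Duoxa2 was highest in the same proximal crypts (184 ± 21.1) and lowest in baseline distal Mtg16-/- crypts (76.4 ± 21.1, or 75.3 without that library). Over these 12 condition means the log2 levels of Duox2 and Duoxa2 had a Pearson r of 0.793, Duoxa2 and Nos2 0.770, Nox1 and Noxo1 0.716, and Nox1 and Nos2 -0.270. Without that library these were 0.794, 0.774, 0.723 and -0.310. The points share libraries, request numbers and cell makeup, so these are descriptions.

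The comparison of distal with proximal WT crypts asked how the 2 ends of the colon differ at baseline. The oxidase genes split between the segments: the catalytic subunit Nox1 and the peroxidase Gpx2 were higher in distal crypts, while the activator Noxa1 and both dual oxidase genes were higher in proximal crypts. Of the 7 members, 5 passed the test (limma, adjusted p under 0.05, 7 distal against 4 proximal libraries), 2 higher distally and 3 higher proximally, where 42.1% of all 13841 genes tested passed. Nox1 was at 6794, a median of 7905 and 14420 normalized counts at the lowest, middle and highest of the 7 distal libraries. In the proximal libraries it was at 3400, 4656, 5947 and 6265. No distal library was below any proximal one, and Nox1 was 1.90-fold higher distally (log2 0.93, SE 0.22, adjusted p = 0.00363).

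Noxa1 went the other way and separated the segments furthest relative to its spread. Its proximal libraries held 4668, 5119, 5326 and 6015 normalized counts and its distal libraries 2343 to 3344, with a median of 2789. The proximal level was 1.91-fold higher (log2 fold change -0.94 distal against proximal, SE 0.093, adjusted p = 2.16e-06). Noxo1, the organizer that works with both, was at 4952 to 5171 proximally and 4592 to 7408 distally, and did not pass (log2 0.18, 95% confidence interval -0.06 to 0.42, adjusted p = 0.215).

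Duoxa2 was 1.81-fold higher in proximal crypts, with 6809, 6883, 7203 and 8442 normalized counts against 3161 to 5311 in distal crypts (log2 -0.85, SE 0.14, adjusted p = 0.000214). Duox2 was 1.41-fold higher in proximal crypts (log2 -0.49, SE 0.11, adjusted p = 0.00221), and its ranges overlapped slightly, at 25234 to 34018 proximally and 17632 to 25337 distally. Gpx2 was at 15102, 18887, 19113 and 20960 proximally and at 21635 to 35428 distally, 1.46-fold higher (log2 0.55, SE 0.14, adjusted p = 0.00556). Nos2 was at 4410 to 8230 proximally and 2910 to 7492 distally and did not pass (log2 -0.51, 95% confidence interval -1.03 to 0.0012, adjusted p = 0.102). Without proximal WT replicate 1 or distal WT replicate 4 of the null colony Nos2 passed (adjusted p = 0.0379 and 0.0259).

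Within the 4 libraries of request number 4149, the only number with WT crypts of both segments, Noxa1 alone passed in limma (log2 -0.83, adjusted p = 0.033). On the log2 scale Nox1 was there at 1.14, Gpx2 at 0.63, Duoxa2 at -0.80, Duox2 at -0.23 and Nos2 at 0.15, on the other side of 0 from its value over all libraries. In the T/T colony the segments had different request numbers, so request and segment cannot be told apart there. T cell markers summed to 919 to 1612 normalized counts in proximal libraries and 151 to 621 in distal ones, and macrophage markers to 2995 to 3297 and 4526 to 7081. Their part in the members' differences was not tested.

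**Figure D3:**
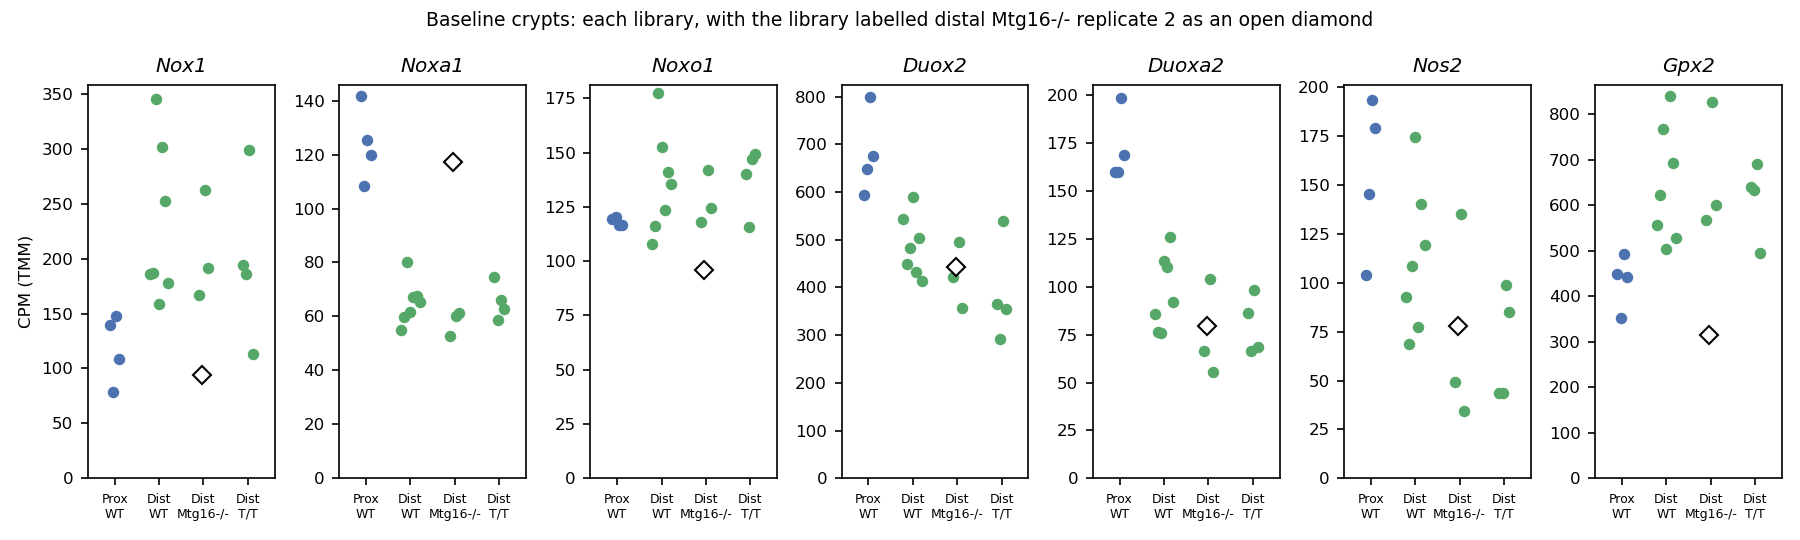
Each point is a baseline crypt library (proximal WT in blue, distal in green), the vertical axis is CPM after TMM scaling, and the open diamond is the library labelled distal Mtg16-/- replicate 2. The diamond lies among the proximal libraries for Noxa1 (117 CPM) and Nox1 (94.2), below them for Gpx2 (314) and Noxo1 (95.9), and among the distal libraries for Duox2, Duoxa2 and Nos2.

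In the library labelled distal Mtg16-/- replicate 2, the members did not all follow the segment genes. Noxa1 was at 117 CPM, within the proximal range of 108 to 142 and above all other baseline distal libraries. Duoxa2 was at 79.7, below the proximal range of 160 to 199, and Duox2 was at 442, below the proximal range of 594 to 800.

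The comparison of WT distal crypts of the T/T colony after DSS with the same crypts at baseline asked how the regenerating epithelium differs from the uninjured one. Nox1 fell 3.03-fold and Duox2 rose 1.48-fold. These 2 of 7 members passed, where 35.6% of all 13566 genes tested did. In WT mice of the null colony neither passed after DSS (edgeR, log2 0.16 for Nox1 and 0.003 for Duox2, adjusted p = 0.80 and 0.99). Nox1 was at 13916, 11450 and 8088 normalized counts at baseline and at 3203, 2847 and 5075 after DSS. The groups did not overlap (log2 -1.60, SE 0.28, adjusted p = 0.0124). Duox2 was at 19927, 22851 and 18787 at baseline and at 29414, 28025 and 33563 after DSS, again without overlap (log2 0.56, SE 0.12, adjusted p = 0.0196).

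The other 5 members were not called in this comparison. Nos2 was at 3580, 6367 and 5417 at baseline and at 5893, 4891 and 10101 after DSS (log2 0.41, 95% confidence interval -0.36 to 1.18, adjusted p = 0.329). Noxa1 was at 2971 to 3102 at baseline and 3096 to 4878 after DSS (log2 0.42, adjusted p = 0.108), and the low DSS library was replicate 3, without which Noxa1 passed (log2 0.63, adjusted p = 0.000221). Noxo1, Duoxa2 and Gpx2 had log2 differences of 0.12, 0.12 and 0.26. The Nox1 call was lost without baseline replicate 1 or 2 or DSS replicate 1 (adjusted p = 0.0558, 0.061 and 0.0612), and the Duox2 call without any of the 3 baseline replicates or DSS replicate 1 (0.0584 to 0.0832), with the fold changes at -1.42 to -1.56 and 0.50 to 0.64. Libraries after DSS had request number 5740 and baseline ones 5094. Genes with transcripts over 5000 bases took 16.4 to 21.2% of normalized counts after DSS and 20.8 to 21.7% at baseline. DSS and the request cannot be told apart, here or in any comparison of DSS with baseline below.

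**Figure D4:**
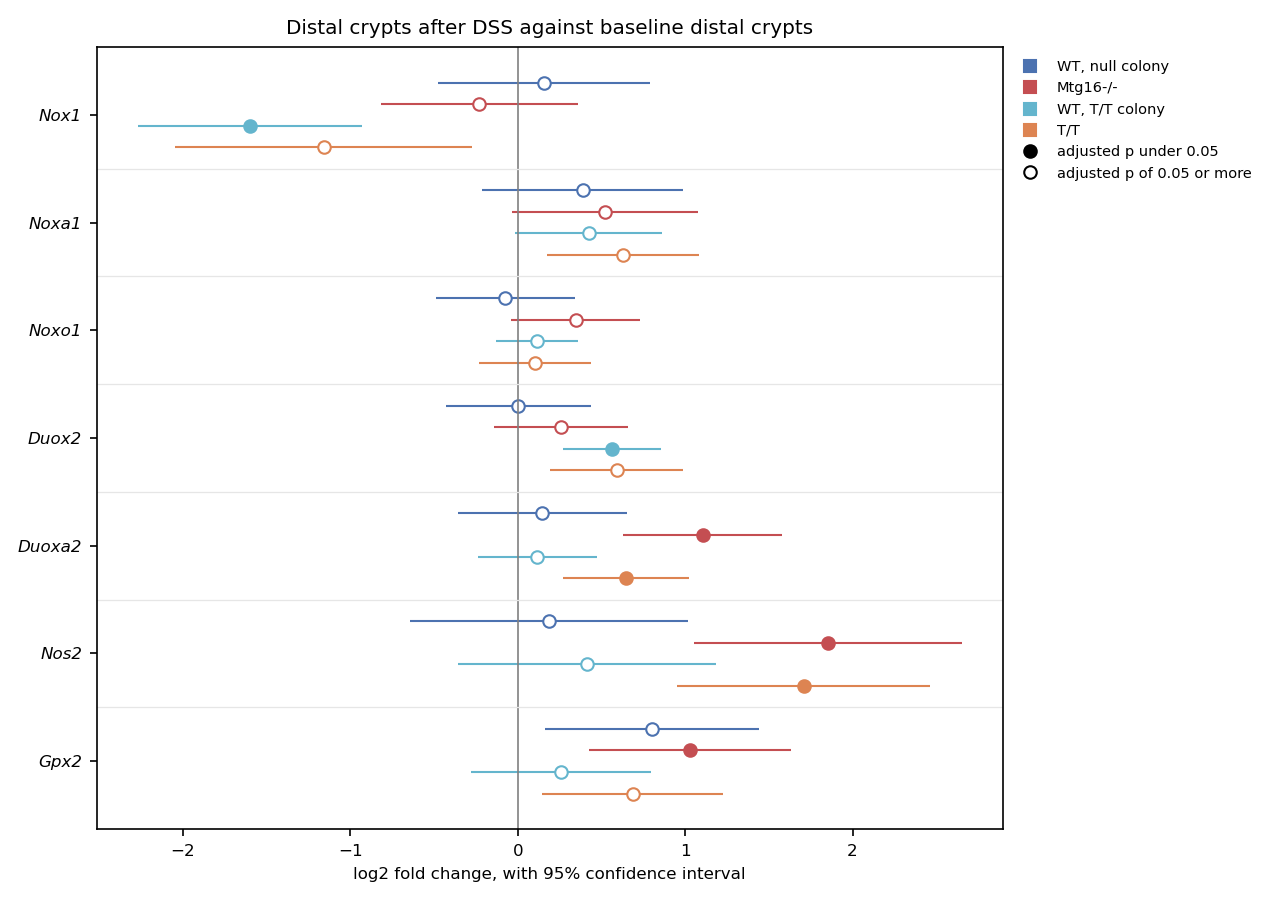
Log2 fold changes of distal crypts after DSS against baseline distal crypts (horizontal axis) with 95% confidence intervals, for each member in WT and mutant mice of both colonies. Filled points passed an adjusted p of 0.05. Nox1 is at -1.60 and -1.16 in the T/T colony and at 0.16 and -0.23 in the null colony, and Nos2 is at 1.85 and 1.71 in the mutants and at 0.19 and 0.41 in their WT littermates.

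Of the 7 members, Nos2 moved most in Mtg16-/- mice after DSS: it rose 3.61-fold, followed by Duoxa2 (2.15-fold) and Gpx2 (2.04-fold). These 3 of 7 members passed in the edgeR fit of recovered reads, against 30.8% of all 14337 genes tested. Nos2 was at 49.2, 77.8, 135 and 34.3 CPM in the 4 baseline libraries and at 226, 224, 371 and 235 after DSS. Every DSS library was above every baseline one (log2 1.85, SE 0.37, adjusted p = 0.00308).

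Duoxa2 was at 66.4, 79.7, 104 and 55.3 CPM at baseline and at 161, 106, 191 and 190 after DSS, without overlap (log2 1.11, SE 0.22, adjusted p = 0.00299). Its partner Duox2 did not pass, at 423, 442, 495 and 357 against 396, 436, 619 and 571 (log2 0.26, 95% confidence interval -0.14 to 0.66). Gpx2 was at 567, 314, 827 and 600 at baseline and at 1529, 956, 894 and 1252 after DSS, without overlap (log2 1.03, SE 0.28, adjusted p = 0.0159). Nox1 was at 94.2 to 262 and 119 to 171 and did not pass (log2 -0.23, adjusted p = 0.536). The 94.2 is the library that went against its label, and without it Nox1 did not pass either (log2 -0.44, adjusted p = 0.16).

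Without the library labelled distal Mtg16-/- replicate 2, which is the baseline library at 314 for Gpx2, the rises were 1.88 for Nos2, 1.13 for Duoxa2 and 0.83 for Gpx2 on the log2 scale. All 3 still passed (adjusted p = 0.0041, 0.0038 and 0.0248). Noxa1 passed as well (log2 0.85, adjusted p = 0.0103, against 0.52 and 0.136 with that library). Gpx2 missed the threshold without DSS replicate 1 of Mtg16-/- (log2 0.86, adjusted p = 0.0611).

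In WT mice of the null colony 0 of 7 members passed after DSS in the edgeR fit, where 4.61% of all genes did, and DESeq2 called 0 as well. At an unadjusted p under 0.05 there was 1 member beside 2900 of all 14337 genes (1127 genes called by DESeq2). It was Gpx2, at 557, 621, 767 and 504 CPM at baseline and at 1487, 1027 and 694 after DSS (log2 0.80, 95% confidence interval 0.16 to 1.44, adjusted p = 0.154). Nos2 was at 92.9, 68.8, 109 and 175 at baseline and at 124, 149 and 107 after DSS (log2 0.19, 95% confidence interval -0.65 to 1.02). Nox1 was at 158 to 345 and 220 to 288 (log2 0.16, 95% confidence interval -0.48 to 0.79).

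The test of whether DSS moved the members differently in Mtg16-/- than in WT mice of that colony called 0 of 7 members, and 0% of all genes passed (560 genes at an unadjusted p under 0.05, 26 with DESeq2). Nos2 and Duoxa2 were the 2 members with an unadjusted p under 0.05. The difference of DSS effects was 1.67 on the log2 scale for Nos2 (95% confidence interval 0.51 to 2.82, adjusted p = 0.908) and 0.96 for Duoxa2 (0.26 to 1.66, adjusted p = 0.976), and DESeq2 called neither. Without the library labelled distal Mtg16-/- replicate 2 these were 1.69 (adjusted p = 0.428) and 0.98, and neither was called.

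In T/T mice after DSS Nos2 rose 3.27-fold and Duoxa2 1.57-fold, and these 2 of 7 members passed, where 10.7% of all 13680 genes did. Nos2 was at 43.4, 43.6, 98.7 and 85.2 CPM at baseline and at 169, 281 and 229 after DSS, without overlap (log2 1.71, SE 0.35, adjusted p = 0.0106). Duoxa2 was at 86.5, 66.7, 98.4 and 68.6 at baseline and at 115, 121 and 150 after DSS, also without overlap (log2 0.65, SE 0.17, adjusted p = 0.0345). Leaving out any 1 library kept the Nos2 call (adjusted p at most 0.0348). The Duoxa2 call was lost without baseline WT replicate 1, baseline T/T replicate 2 or 4, or DSS T/T replicate 1 or 3 (adjusted p = 0.0509 to 0.0999).

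Nox1 in T/T mice was at 195, 186, 299 and 113 CPM at baseline and at 96.8, 136 and 42.4 after DSS, and the fall did not pass (log2 -1.16, 95% confidence interval -2.05 to -0.27, adjusted p = 0.0914). Duox2 (log2 0.59), Gpx2 (0.69) and Noxa1 (0.63) had adjusted p = 0.0598, 0.0985 and 0.0749. Each of these 4 passed when a particular library was left out: DSS T/T replicate 2 for Nox1, Gpx2 and Noxa1 (adjusted p = 0.0336, 0.0324 and 0.0232), baseline T/T replicate 3 for Duox2 (0.00784), and DSS WT replicate 3 for Duox2 and Noxa1 (0.0427 and 0.029). DESeq2 called 6 members and 2469 of all genes. The test of a different DSS effect in T/T than in WT mice called 0 of 7 members and 0.0146% of all genes. Nos2 was the 1 member with an unadjusted p under 0.05 in it, beside 1408 of all genes (log2 difference 1.28, 95% confidence interval 0.17 to 2.38, adjusted p = 0.426), and DESeq2 called 0 members and 220 genes.

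Neutrophil markers moved with DSS in Mtg16-/- mice, in T/T mice and in WT mice of the null colony. The list without Ly6g, a gene at 3597 to 11574 normalized counts in all distal crypt groups except the library that went against its label, summed to 125 to 274 at baseline in the null colony, or 125 to 206 without that library. After DSS it summed to 811 to 3442 in WT and 5113 to 16332 in Mtg16-/-. In the T/T colony it was at 148 to 262 at baseline, and after DSS at 273 to 911 in WT and 1327 to 2193 in T/T. Baseline and DSS sums were scaled apart here, so these ranges cannot be compared closely. Scaled together, WT libraries of the T/T colony held 226 to 269 at baseline and 838, 253 and 308 after DSS, with overlap. Fibroblast markers rose in Mtg16-/- mice (3 of 4 tested, log2 4.22 for Col1a2, 4.65 for Col1a1 and 4.80 for Col3a1), as did B and plasma cell markers (2 of 5, Cd79a at 3.88 and Cd79b at 3.36, and 4 of 5 without the library that went against its label). Of 6 colonocyte markers 2 fell (Slc26a3 at -1.62 and Car1 at -2.74), where without that library Slc26a3 fell (-1.76) and Guca2a rose (1.28). In T/T mice 0 of 4 fibroblast markers passed, Cd79a rose (3.07), and Car4 (-0.83) and Aqp8 (-1.07) fell. In WT mice Col1a1 rose in the null colony (3.12), and Col1a1 (1.54), Col3a1 (2.00) and Guca2a (1.47) rose and Slc26a3 (-1.74) fell in the T/T colony. The part of these markers in the members' changes after DSS was not tested.

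A comparison added after these values were seen asked whether DSS moved the members differently in WT mice of the colonies. The difference of DSS effects, null colony minus T/T colony, was 1.68 on the log2 scale (SE 0.41, adjusted p = 0.0209), and Nox1 was the 1 of 7 members called, where 15.1% of 13888 genes were. Duox2 was at -0.63 (95% confidence interval -1.21 to -0.05, adjusted p = 0.122). The Nox1 call was lost without baseline WT replicate 1 or 2 of the T/T colony, DSS WT replicate 1 of the T/T colony or DSS WT replicate 2 of the null colony (adjusted p = 0.0506 to 0.062). Without that null-colony library Duox2 passed (log2 -0.91, adjusted p = 0.022). The DSS libraries of the colonies had request numbers 6217 and 5740, and colony and request cannot be told apart.

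Among crypts taken after DSS, the comparison of Mtg16-/- with WT littermates asked whether loss of MTG16 changes the regenerating epithelium. Nos2 was higher and Nox1 lower in Mtg16-/- crypts in every library, but 0 of 7 members passed in the unpaired limma test, where 0.629% of all 14476 genes did. There were 3 members at an unadjusted p under 0.05 (Nos2, Nox1 and Duoxa2), 0 called by edgeR and the same 3 by DESeq2. Over all genes these counts were 1796, 89 and 727. Nos2 was at 6458, 7950 and 5636 normalized counts in WT and at 11902, 11864, 20041 and 12361 in Mtg16-/-, 2.07-fold higher (log2 1.05, SE 0.22, 95% confidence interval 0.56 to 1.53, adjusted p = 0.0667). Nox1 was at 11439, 15372 and 11726 in WT and at 6281, 8867, 7727 and 8999 in Mtg16-/-, 1.61-fold lower (log2 -0.69, SE 0.18, 95% confidence interval -1.09 to -0.29, adjusted p = 0.117). These were the 2 of 7 members whose groups did not overlap, against 11.4% of all genes tested.

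The labels document no pairs, but libraries sharing a replicate number correlated (r from 0.317 to 0.554 in 3 pairs). Pairing was thus inferred from these same data. In limma with the replicate block both genes passed: Nos2 was at 1.10 (adjusted p = 0.0133) and Nox1 at -0.75 (adjusted p = 0.00286) on the log2 scale. With the block 8.78% of all genes passed, and the Mtg16-/- library of replicate 4, which has no partner, has no weight. Duoxa2 was at 4690, 6156 and 4538 in WT and at 8462, 5621, 10291 and 10000 in Mtg16-/- (log2 0.72, 95% confidence interval 0.22 to 1.22, adjusted p = 0.191). Duox2 did not follow its partner, at 24592, 36722 and 20624 against 20868, 23060, 33429 and 30034 (log2 -0.01, 95% confidence interval -0.54 to 0.53). Gpx2 was at 36518 to 77175 in WT and 48240 to 80507 in Mtg16-/- (log2 0.16, adjusted p = 0.84).

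Neutrophil markers were higher in Mtg16-/- than in WT in the same libraries, while the macrophage and fibroblast sums overlapped. In the order of the Mtg16-/- libraries above, the neutrophil list without Ly6g summed to 16332, 5113, 16073 and 5289 normalized counts, against 1516, 811 and 3442 in WT. Macrophage markers summed to 19981, 10095, 19223 and 12575 against 12606, 9183 and 10072, and fibroblast markers to 448 to 4390 against 395 to 488. The highest Nos2 value was in replicate 3, and replicate 1, with like immune sums, held 11902. No macrophage or neutrophil marker of these lists was at 0 in all libraries of a group, and their part in the Nos2 difference was not tested.

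**Figure D5:**
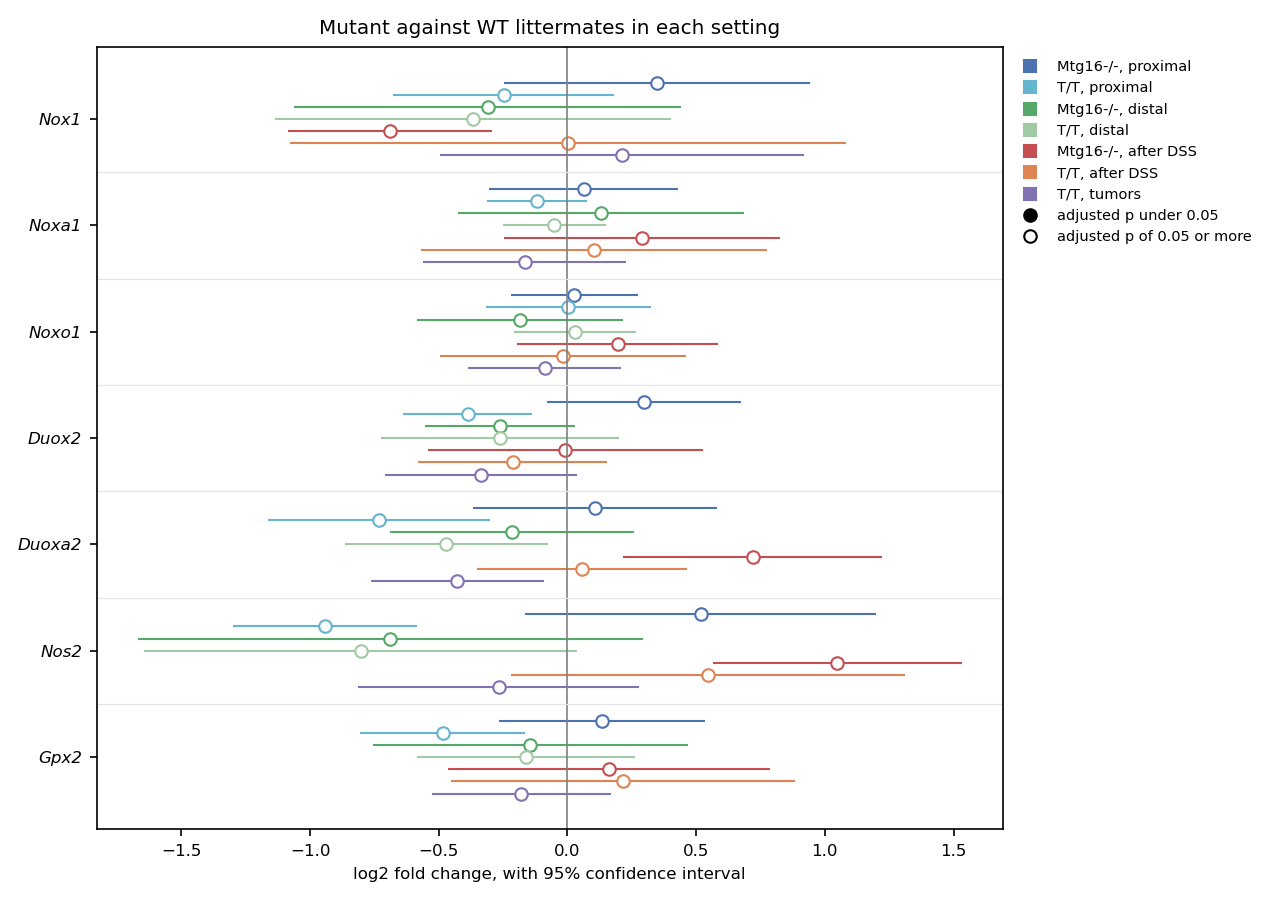
Log2 fold changes of mutant against WT littermates (horizontal axis) with 95% confidence intervals, for each member in 7 comparisons. All points are open because no member passed an adjusted p of 0.05 in the unpaired tests. The intervals farthest from 0 are those of Nos2, at 1.05 in Mtg16-/- crypts after DSS and at -0.94 in proximal T/T crypts.

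In T/T crypts after DSS, compared with those of WT littermates, 0 of 7 members passed, 0 had an unadjusted p under 0.05, and edgeR and DESeq2 called 0 as well. Over all 13648 genes 0% passed in limma (1197 genes at an unadjusted p under 0.05, 0 by edgeR and 331 by DESeq2). Nos2 was at 6406, 5274 and 10665 normalized counts in WT and at 7762, 13439 and 10768 in T/T (log2 0.55, 95% confidence interval -0.22 to 1.31, adjusted p = 0.721). Nox1 was at 3482, 3069 and 5359 in WT and at 4435, 6523 and 1993 in T/T, with the ranges overlapping (log2 0.0032, 95% confidence interval -1.08 to 1.08).

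At baseline, no member was called between genotypes in either segment. In distal crypts Mtg16-/- against WT called 0 of 7 members by limma, 0 at an unadjusted p under 0.05, and 0 by edgeR and DESeq2, where 0.239% of all genes passed. Over all genes 641 had an unadjusted p under 0.05, and edgeR called 29 and DESeq2 202. Nos2 was at 4050, 2988, 4670 and 7664 normalized counts in WT and at 2142, 3416, 5874 and 1495 in Mtg16-/- (log2 -0.69, 95% confidence interval -1.67 to 0.29). Noxa1 was at 2399 to 3438 in WT and at 2300, 5155, 2608 and 2678 in Mtg16-/- (log2 0.13). Without the library that went against its label the differences were -0.78 for Nos2, -0.13 for Noxa1, -0.04 for Nox1 (from -0.31) and 0.12 for Gpx2 (from -0.15), and none was called.

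In distal T/T crypts against WT, 0 of 7 members passed, where 0.0369% of all genes did, and edgeR and DESeq2 called 0 (5 and 53 over all genes). The 1 member at an unadjusted p under 0.05, beside 629 of all 13535 genes, was Duoxa2, at 4369, 4972 and 3614 in WT and 3312, 2649, 3885 and 2671 in T/T (log2 -0.47, 95% confidence interval -0.87 to -0.08, adjusted p = 0.863). Nos2 was at 3082, 5549 and 4689 in WT and at 1662, 1731, 3894 and 3318 in T/T, with overlap (log2 -0.80, 95% confidence interval -1.64 to 0.04, adjusted p = 0.863).

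In proximal crypts, with 2 libraries a group, T/T against WT called 0 of 7 members (0.232% of all genes), and 4 had an unadjusted p under 0.05, all lower in T/T, beside 1652 of all 13767 genes. Nos2 was at 8000 and 7358 normalized counts in WT and 4649 and 3428 in T/T, 1.92-fold lower (log2 -0.94, SE 0.15, adjusted p = 0.0993). Without T/T replicate 1 the adjusted p was 0.0417, from a spread that the WT pair alone gave, with the lone T/T library assumed to vary like it. Duoxa2 was at 8206 and 6929 in WT and 5446 and 3779 in T/T (log2 -0.73, adjusted p = 0.222), and Duox2 at 33069 and 27773 against 23003 and 23299 (log2 -0.39, adjusted p = 0.266). Gpx2 was at 20375 and 18168 in WT and 15567 and 12153 in T/T (log2 -0.48, adjusted p = 0.272). Groups of 5 members did not overlap, where 45.5% of all genes did not. Neutrophil and macrophage markers summed to 628 to 641 and 3023 to 3171 normalized counts in WT and to 403 to 446 and 2570 to 2634 in T/T, and Reg3b, an antimicrobial lectin, was at 234317 and 496485 against 139636 and 192498. Their part was not tested.

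Proximal Mtg16-/- against WT called 0 of 7 members, 0 at an unadjusted p under 0.05, where 0.0645% of all genes passed and 831 had an unadjusted p under 0.05. Nos2 was at 4756 and 6670 in WT and 10809 and 6013 in Mtg16-/- (log2 0.52, 95% confidence interval -0.17 to 1.20). Duox2 was at 27213 and 29777 in WT and at 39147 and 31264 in Mtg16-/- (log2 0.30, adjusted p = 0.878). Groups of 2 members, Duox2 and Noxo1, did not overlap, where 35.6% of all genes did not. No count test was run in either proximal comparison.

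In tumors, T/T against WT called 0 of 7 members and 0% of all 15900 genes by limma, with 392 genes at an unadjusted p under 0.05. There edgeR called 0 genes and DESeq2 24, and both called 0 members. Duoxa2 was the 1 member at an unadjusted p under 0.05 and the only one without overlap, at 5870, 6927 and 6577 normalized counts in WT and 4754, 5791 and 3985 in T/T (log2 -0.43, 95% confidence interval -0.77 to -0.09, adjusted p = 0.998). Duox2 was at 27960, 25827 and 26637 in WT and 22044, 25964 and 16754 in T/T (log2 -0.33). Nos2 was at 10062, 8651 and 7542 in WT and 7168, 10199 and 5156 in T/T (log2 -0.27), and the log2 differences of Nox1, Noxa1, Noxo1 and Gpx2 were 0.21, -0.17, -0.09 and -0.18.

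The other genes of the pathway are given by list. The list counts stand beside the shares of all genes called, which were 20.1% higher distally and 22% proximally between segments. After DSS 16.4% of all genes rose and 14.4% fell in Mtg16-/- mice (17.3% and 15% without the library that went against its label), and 4.01% and 0.6% in WT mice of that colony. In T/T mice 6.29% rose and 4.43% fell, and in WT mice of the T/T colony 14% and 21.6%. Of the NADPH oxidase family list (12 genes: partners, phagocyte subunits and other oxidases), 6 of 9 tested passed between segments, 2 higher distally and 4 higher proximally, with a list median of -0.14 beside 0.0048 over all genes on the log2 scale. The phagocyte genes Rac2 (log2 -1.62), Ncf1 (-1.45) and Ncf4 (-1.35) were higher proximally and Cybb (1.01), the phagocyte counterpart of Nox1, distally, all at low levels with means of 20.4 to 635 normalized counts. Cyba, the partner of both Nox1 and Cybb, differed little (-0.22, adjusted p = 0.0156), and Rac1 did not pass (-0.14).

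After DSS in Mtg16-/- mice, 7 of 10 tested genes of that list rose and 0 fell, with a list median of 1.59 beside -0.02 over all genes. Without the library that went against its label 8 of 10 rose. The 7 included Duox1 (log2 4.11, SE 0.58), the other dual oxidase, Ncf4 (2.85), Ncf1 (2.18), Cybb (2.11) and Cyba (1.02, adjusted p = 0.00761). Ncf1, Ncf4 and Cybb are phagocyte genes, and 7 of 8 tested neutrophil and 7 of 9 macrophage markers rose in the same comparison. In WT mice of the null colony Duox1 alone rose (3.41, adjusted p = 0.00206), and in either genotype of the T/T colony no gene of the list passed. Cyba was at 0.41 (adjusted p = 0.0502) in WT and 0.43 (0.208) in T/T mice there, Rac1 at 0.23 and 0.28, and Cybb at -2.48 (adjusted p = 0.0867) and -0.30.

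Among genes of nitric oxide and arginine metabolism, 9 of 11 tested passed between segments, 4 higher distally and 5 proximally. Ass1 (log2 1.66), which remakes arginine from citrulline, and the arginine transporter Slc7a2 (0.95) were higher distally. After DSS, 5 of 12 rose in Mtg16-/- mice, among them Nos3 (3.98), Ass1 (1.60) and Ddah2 (1.04), and 2 of 12 rose in WT mice of that colony, among them Nos3 (2.77). In T/T mice 2 of 11 rose, among them Ddah1 (1.01), and Slc7a2 (-2.31) fell. In WT mice of the T/T colony Pts (-0.58) fell and Spr (0.44) rose, both enzymes that make the Nos2 cofactor tetrahydrobiopterin.

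Of the peroxide removal list, 5 genes were higher distally and 5 proximally of 18 tested, with Prdx6 (log2 1.47) and Gpx3 (1.39) furthest, and the abundant Gpx1 at 0.31 (adjusted p = 0.000633). In Mtg16-/- mice after DSS 4 of 18 rose, namely Gpx3 (1.87), Gpx1 (0.87), Prdx4 (0.82) and Prdx5 (0.57), and 1 fell (Cat, -0.51), against 30.8% of all genes called in either direction. Without the library that went against its label the same 4 rose and 2 fell, Cat (-0.47) and Prdx6 (-0.65). Txn2 (0.47) was the 1 gene called in WT mice of the T/T colony, and 0 of 18 passed in WT mice of the null colony or in T/T mice.

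Of 13 Nrf2 target genes, the antioxidant program that Gpx2 is counted among, 2 were higher distally and 5 proximally, led by Me1 (-4.11) and Gsta3 (3.47). After DSS, Hmox1 rose in Mtg16-/- mice (1.51), in T/T mice (1.51) and in WT mice of the T/T colony (1.13), while Ugdh fell in the same groups (-1.62, -1.12 and -1.06). In T/T mice Me1 (2.08, adjusted p = 0.00939) also rose and Gsta3 (-0.90, adjusted p = 0.00546) fell. Me1 rose in Mtg16-/- mice as well without the library that went against its label (2.62, adjusted p = 0.000232), where Ugdh was at -0.91. Gclc (-0.57) and Slc7a11 (-2.24) fell in WT mice of the T/T colony, whereas Slc7a11 rose in Mtg16-/- mice (0.98).

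Of 12 STAT3 and NF-kB target genes of gut epithelium, 2 were higher distally and 4 proximally, and Reg3b (-8.63) and Reg3g (-7.83) were furthest higher in proximal crypts. In T/T mice after DSS 4 rose and 0 fell, namely Reg3b (8.44), Reg3g (6.95), Saa3 (2.31) and Fut2 (1.11), and in Mtg16-/- mice Lcn2 (2.78) and Socs3 (0.97) rose and Pigr (-0.64) fell. Reg3b (-0.18) and Reg3g (-0.51) were not called there, but the library labelled distal Mtg16-/- replicate 2 held 157133 normalized counts of Reg3b at baseline and the other 3 held 58.9 to 858. Without it Reg3b (log2 6.75, adjusted p = 0.00204), Reg3g (6.12), Saa3 (4.51) and Fut2 (0.67) rose too and Tnfaip3 (-0.68) fell, 6 up and 2 down of 12. WT mice of the T/T colony had Fut2 higher (0.82) and Nfkbiz lower (-1.04), and WT mice of the null colony had 0 of 12 called. In the 7 comparisons of mutant with WT littermates no gene of these 5 lists passed.

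The genes whose pattern over the 12 condition means was most like that of a member, by Pearson r among 12951 genes, were Naa35 (0.973), Xpr1 (0.972) and Serpinb1a (0.970) for Nox1. For Duox2 they were Ptrhd1 (0.937), Slc39a4 (0.915) and Greb1 (0.909). For Gpx2 they were Impdh2 (0.973), Lrrc8a (0.961) and Prdx4 (0.956), and for Nos2, with lower values, Rpa2 (0.854), Fkbp1a (0.848) and Cyba (0.844). Without the library that went against its label the first-ranked gene was the same for Nox1, Duox2 and Gpx2, and for Nos2 it was Ggt1 (0.873).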

How the data were processed

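The study sequenced poly(A) RNA of mouse colon crypts and tumors in 42 libraries of 14 conditions. The authors trimmed reads with fastp 0.20.0, estimated transcript counts with Salmon 1.3.0 against GENCODE vM21 (mm10) and normalized them with DESeq2 1.26.0 in R 3.6.3. The 9 deposited tables hold signal values, namely counts divided by size factors, each table scaled on its own. Their columns of fold changes and p-values for the authors' own comparisons were not used.

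In all 9 tables the values were whole multiples of 1 step per library (tolerance 0.01, 100% of positive values), and whole reads were recovered from 7. In the 2 tables of proximal mutant against WT crypts some libraries had a step within 0.01 of 1, where multiples of the step are hard to tell from rounded values, so recovery was not claimed and the edgeR and DESeq2 tests were not run. Within a table, log2(value + 1) of genes with a mean of at least 10 was tested with limma 3.58.1 (trend), so fold changes are on that scale. Comparisons of DSS with baseline outside the WT table of the T/T colony used the edgeR 4.0.16 quasi-likelihood test on recovered reads with TMM scaling, 1 model of 4 groups per colony, since normalized counts of separate tables cannot be compared. Both used R 4.3.3, p-values adjusted over all genes tested by the Benjamini-Hochberg method, and a threshold of 0.05. Both tests were tested on simulated data first. Alternatives were a pseudocount of 0.1, no filter, other scalings, edgeR and DESeq2 1.42.0, the replicate block, the request, and each library left out. Levels, correlations and list counts without the library labelled distal Mtg16-/- replicate 2 were added after the data were seen.

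The members and gene lists were chosen with earlier results of these data known. All members were described in every comparison, and from each pathway list at most 4 called genes of largest change, plus Cyba, Rac1, Cybb and Gpx1. The values of some genes of these lists are not reported here. Replicate numbers were treated as pairs where all of at least 3 pairs of libraries correlated above 0.1, which held for Mtg16-/- against WT after DSS (r from 0.317 to 0.554 in 3 pairs).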

Additional observations from a re-analysis of the deposited data

Results flagged for a closer look

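In 3 of 28 combinations of a member and a group of at least 4 libraries, the highest library stood far from the others, where chance gives about 1 in 20. Nos2 in Mtg16-/- crypts after DSS was at 20041 normalized counts in replicate 3 and at 11864 to 12361 in the other libraries, so that the gap took 0.939 of the range. Noxa1 in baseline distal Mtg16-/- crypts was at 5155 in replicate 2, the library that went against its label, and at 2300 to 2678 in the others (gap 0.868 of the range). Nox1 in baseline distal WT crypts of the null colony was at 14824 in replicate 3 and at 6950 to 8104 in the others (gap 0.854 of the range).

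The DSS effect on Nox1 differed between WT mice of the colonies by 1.68 on the log2 scale (edgeR, adjusted p = 0.0209), where 15.1% of all genes were called. This call was lost with the replicate block and without some single libraries. In proximal crypts both Mtg16-/- libraries had more Duox2 than both WT libraries of their colony and both T/T libraries had less than theirs, and the log2 differences were 0.69 apart. That difference was not tested.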

How the results depend on the processing

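Of 1610 recomputed log2 fold changes of members, 1481 kept their direction and their side of the threshold, 78 were called in neither fit and lay on the other side of 0, 25 passed only under the alternative, 26 passed only in the test as reported, and 0 called values changed direction. With the replicate block, which pairs libraries by replicate number, 1 member in place of 2 was called after DSS in WT mice of the T/T colony (Nox1), 2 in place of 0 in Mtg16-/- against WT after DSS (Nos2 and Nox1), 2 in place of 0 in T/T against WT proximal crypts (Duoxa2 and Nos2), 1 in place of 2 after DSS in T/T mice (Nos2) and 0 in place of 1 between the colonies. Only Mtg16-/- against WT after DSS met the pairing rule, and elsewhere libraries shared a number alone. The block changed no other count of members by over 1.5 times. DESeq2 called 3 members in place of 0 in Mtg16-/- against WT after DSS and 6 in place of 2 after DSS in T/T mice, and within request 4149 there was 1 segment call in place of 5. The causes were not tested. The edgeR and DESeq2 alternatives were not run for the 2 proximal comparisons of mutant with WT.

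Leaving out each library in turn gave 0 to 3 calls after DSS in WT mice of the T/T colony, 2 to 4 in Mtg16-/- mice, 1 to 5 in T/T mice, 5 to 6 between segments, 0 to 1 in T/T against WT proximal crypts (where 1 library is left in a group and is assumed to vary like the other group) and 0 to 1 between the colonies. It gave 0 in the other 9 comparisons. Over all genes, DESeq2 called 727 in place of 91 in Mtg16-/- against WT after DSS (1271 with the block), 202 in place of 33 in distal Mtg16-/- against WT (1 with the block, 8 with the request as a covariate), 53 in place of 5 in distal T/T against WT (0 with the block), 331 in place of 0 in T/T after DSS and 24 in place of 0 in tumors (1 with no filter). It called 1127 in place of 661 after DSS in WT mice of the null colony, 2469 in place of 1466 in T/T mice (676 with the block), and 26 in place of 0 and 220 in place of 2 for the differences of DSS effects by genotype in the null and T/T colonies (the latter 16 with scaling by totals, 7 with no filter and 1 with the block). The block gave 2679 in place of 4833 after DSS in WT mice of the T/T colony, 459 in place of 2097 between the colonies, and 32 in place of 9 and 151 in place of 32 in proximal Mtg16-/- and T/T against WT, the latter 2 with no filter. Between segments the request as a covariate gave 3189 in place of 5824 and request 4149 alone gave 2014. Groups of 2 to 4 libraries limit the precision of all these values.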
